A study of Schizosaccharomyces pombe with 70 samples.

Results

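The core environmental stress genes described here are 10 genes of fission yeast (Schizosaccharomyces pombe) that are widely used as markers of its general stress response: tps1, tpp1, ntp1, gpd1, gpx1, ctt1, pyp2, atf1, hsp9 and ish1. They were taken by their symbol in the platform's probe annotation, out of 4929 features on the array, and all 10 were among the 4921 features tested. Each feature had 2 probes, and its value was the mean of both. Asynchronous mid-log cultures grown at 30 °C were exposed to 8 mM hydroxyurea (HU) for 0, 10, 30, 60 or 120 min, in a rad3 sep1 double mutant, in rad3, cds1 and chk1 mutants, and in wild type. The labels name the mutated genes and give no alleles. All strains received HU, and the 0 min cultures of a strain are its untreated cells. Every value below is a log2 ratio of the sample (Cy5) to untreated wild type (Cy3), so a change of 1 is a 2-fold difference.

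Fission yeast answers osmotic, oxidative, heat and nutritional stress through a mitogen-activated protein kinase cascade in which the kinase Wis1 activates the kinase Sty1. Active Sty1 phosphorylates the bZIP transcription factor Atf1, and a shared set of genes for trehalose and glycerol metabolism, antioxidant enzymes and small heat shock proteins rises. HU inhibits ribonucleotide reductase and stalls replication forks. Rad3 is the apical kinase of the replication and DNA damage checkpoints, Cds1 its effector at stalled forks and Chk1 its effector at damaged DNA. The forkhead protein Sep1 drives transcription of genes for mitosis and cell separation.

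The 70 arrays gave 61 samples after 9 pairs of arrays, whose differences by gene did not repeat between the 2 probes, were averaged. Of these samples 5 are from rad3 sep1, 14 from rad3, 15 from cds1, 14 from chk1 and 13 from wild type. The 2 arrays of a rad3 sep1 pair did differ by a shift of the whole array. Its median was 0.156, 0.141, -0.068, 0.00577 and 0.0704 at 0, 10, 30, 60 and 120 min, with an SD over features of 0.0157 or less. Each rad3 sep1 time is a single sample, and its 0 min sample stands behind every rad3 sep1 change. The transcripts of the mutated genes were low where the labels say so. The rad3 transcript averaged -2.36 in rad3 sep1 and -2.20 in rad3, against -0.18 in wild type, and sep1 averaged -3.54 in rad3 sep1 against -0.09 in wild type. The cds1 transcript averaged -2.45 in cds1 against 0.29 in wild type, and chk1 averaged -1.37 in chk1 against -0.53 in wild type. The number of arrays limits the precision. These are bulk cultures, so a larger share of cells with a transcript and more transcript per cell cannot be told apart.

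The scale has no natural zero for these genes. Untreated wild-type cells were measured against an untreated wild-type reference, yet 6 of the 10 genes had a mean log2 ratio of 0.5 or more in size in them, as did 5.08% of all 4929 features. In the 3 untreated wild-type samples tps1 averaged 0.89 ± 0.09, gpd1 0.80 ± 0.11, gpx1 0.67 ± 0.16, atf1 0.63 ± 0.15, hsp9 0.53 ± 0.08 and pyp2 -0.92 ± 0.13 (SD, n = 3). Changes are therefore given against the 0 min samples of the same strain, and strains are compared at 0 min with each other.

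Most of these genes rose during HU exposure in every strain, and more of them had risen after 60 and 120 min than after 10 and 30 min. The late change is the mean of 60 and 120 min minus 0 min. By limma with Benjamini-Hochberg adjustment over all features, 9 of 10 genes rose in rad3 sep1, 8 in rad3, 7 in cds1, 6 in chk1 and 6 in wild type, and none fell. No culture kept without HU to the later times was analysed here, so exposure and time cannot be told apart. The share of all features that rose late was 11% in rad3 sep1, 10.4% in rad3, 12.4% in cds1, 12.6% in chk1 and 12.3% in wild type, and the share that fell was 5.14%, 8.94%, 12.6%, 14.9% and 12.1% in the same order. The median late change of the 10 genes was 1.55 in rad3 sep1, 0.81 in rad3, 0.99 in cds1, 0.49 in chk1 and 0.56 in wild type, where the median of all features lay between -0.02 and 0.02. A core of 6 genes, hsp9, ish1, ntp1, tps1, gpx1 and ctt1, rose in all 5 strains. Added to it were gpd1 and pyp2 in rad3, pyp2 in cds1, and gpd1, pyp2 and tpp1 in rad3 sep1, while atf1 passed late in no strain. With quantile normalization between arrays 5 of the 10 rose in rad3 sep1, 3 in rad3, 5 in cds1, 3 in chk1 and 6 in wild type. Of all 4921 features 74 rose and 58 fell in rad3 sep1, 360 and 374 in rad3 and 540 and 519 in cds1 with this normalization. In chk1 539 rose and 620 fell, and in wild type 573 and 590. Of the 10, gpx1 in rad3 turned to -0.090, and atf1 in chk1 and gpd1 in wild type passed as lower. Of the core only ish1 passed in all 5 strains with this normalization, and ctt1 passed in no strain on its first probe.

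**Figure D1:**
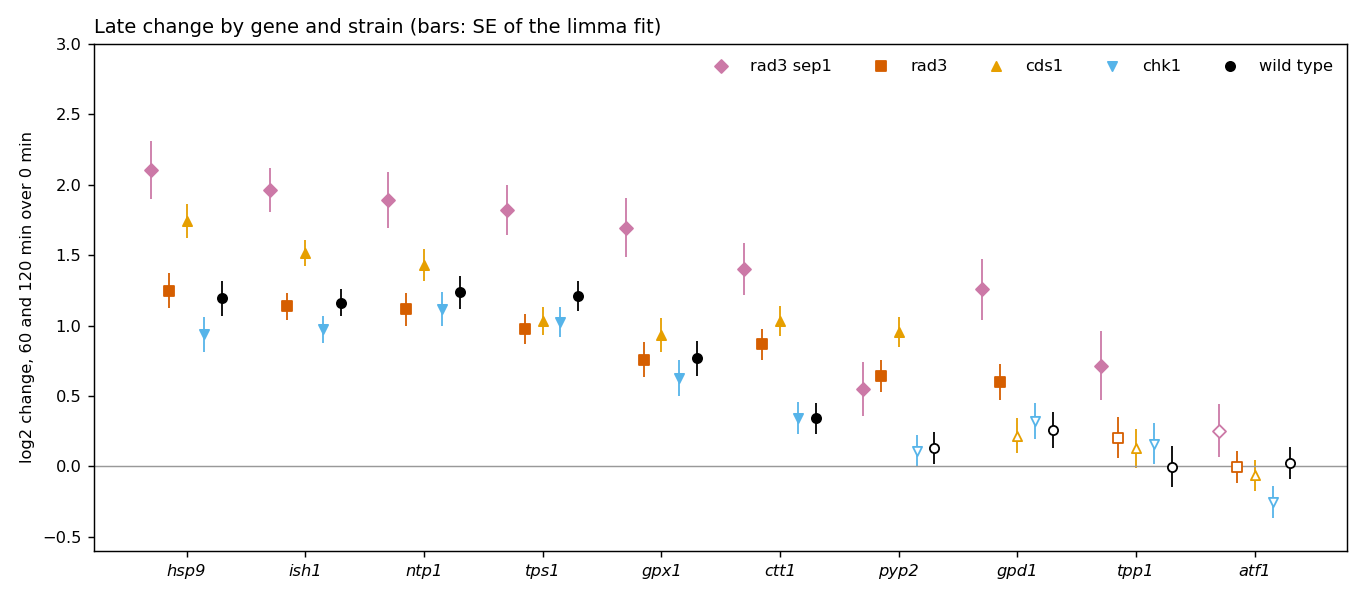
Late log2 change (mean of 60 and 120 min minus 0 min) of each gene in rad3 sep1, rad3, cds1, chk1 and wild type, with bars for the standard error of the limma fit. Filled symbols passed the test and open symbols did not: hsp9, ish1, ntp1, tps1, gpx1 and ctt1 are filled in all 5 strains and atf1 is open in all 5.

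Trehalose is a disaccharide that protects proteins and membranes under stress. Of its genes, tps1 (SPOM_SPAC328.03), which encodes trehalose-6-phosphate synthase, and ntp1 (SPOM_SPBC660.07), which encodes the neutral trehalase that breaks trehalose down, rose in all 5 strains. The gene of the trehalose-6-phosphate phosphatase, tpp1 (SPOM_SPAC19G12.15C), passed in rad3 sep1 alone. At 0 and then 120 min, tps1 was at 0.58 and 2.61 in the rad3 sep1 samples. In rad3 it was at 1.19, 1.36 and 1.44 at 0 min and at 2.70, 2.61 and 2.67 at 120 min. In cds1 it was at 1.14, 1.14 and 1.05 at 0 min and at 2.28, 2.36 and 2.21 at 120 min. All 120 min samples thus lay above all 0 min samples in these strains, as they did in chk1, with 0.97, 1.13 and 1.04 at 0 min and 2.50, 2.21 and 2.28 at 120 min. In wild type the tps1 values were 0.79, 0.98 and 0.90 at 0 min and 2.10, 2.33 and 2.41 at 120 min, again without overlap. The late change of tps1 was 1.82 ± 0.18 in rad3 sep1, 0.98 ± 0.11 in rad3, 1.03 ± 0.10 in cds1, 1.02 ± 0.11 in chk1 and 1.21 ± 0.11 in wild type (SE of the fit), with adjusted p of 1.1e-09 or less. Quantile normalization reduced it to 0.020 in rad3, 0.045 in cds1 and 0.29 in chk1, which did not pass, and to 0.39 in wild type (adjusted p = 0.0499).

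The neutral trehalase gene ntp1 moved much like tps1. In rad3 sep1 it was at 0.15, 0.56, 1.14, 1.66 and 2.43 at 0, 10, 30, 60 and 120 min, each time above the one before. At 120 min it was at 2.47, 2.43 and 2.00 in rad3, at 2.41, 2.35 and 2.14 in cds1, at 2.46, 2.16 and 2.24 in chk1 and at 2.03, 1.98 and 1.72 in wild type. At 0 min the highest single value was 1.10, in chk1, so no untreated sample reached any of these. Its late change was 1.89 ± 0.20 in rad3 sep1, 1.12 ± 0.12 in rad3, 1.43 ± 0.11 in cds1, 1.12 ± 0.12 in chk1 and 1.24 ± 0.12 in wild type. With quantile normalization the rad3 value was 0.34 and missed the threshold (adjusted p = 0.0532), and the other 4 passed. The phosphatase gene tpp1 was at 0.55, 0.84, 1.07, 1.28 and 1.26 over the 5 times in rad3 sep1. Its late change there was 0.72 ± 0.24 (adjusted p = 0.0347), on the first probe 0.86 and on the second 0.57. This call did not pass on the second probe, with quantile normalization, or at 60 or 120 min taken alone. Its late changes in the other strains were 0.20 in rad3, 0.13 in cds1, 0.16 in chk1 and -0.0017 in wild type, each with an SE of 0.14 or 0.15, and none passed.

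**Figure D2:**
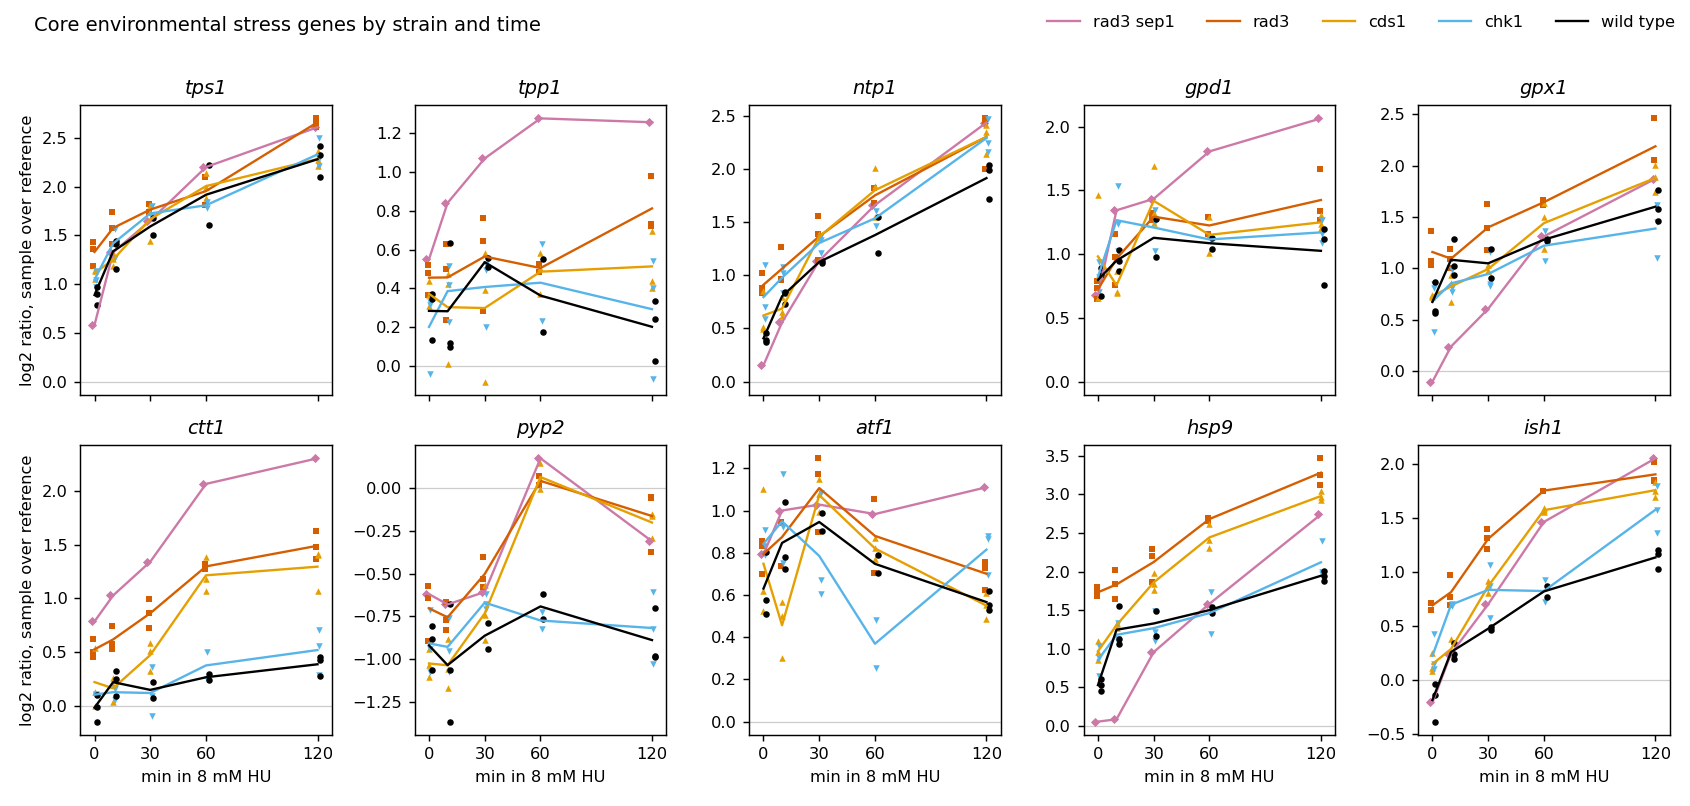
Log2 ratio to untreated wild type of each gene against minutes in 8 mM HU, with 1 point per sample and a line through the means of rad3 sep1, rad3, cds1, chk1 and wild type (y axes differ between panels). The hsp9 line of rad3 runs from 1.73 at 0 min to 3.28 at 120 min, above that of wild type at 0.53 and 1.95, and the pyp2 lines of cds1, rad3 and rad3 sep1 step up between 30 and 60 min.

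The small heat shock protein gene hsp9 (SPOM_SPAP8A3.04C) and ish1 (SPOM_SPBC365.12C), which encodes a stress-induced protein of the nuclear envelope, were the genes with the largest late changes in rad3 sep1, rad3 and cds1. In untreated cells hsp9 was at 0.06 in rad3 sep1, at 1.80, 1.68 and 1.72 in rad3, at 1.10, 0.85 and 0.96 in cds1, at 0.64, 0.88 and 1.04 in chk1 and at 0.45, 0.53 and 0.61 in wild type. After 120 min it was at 2.74 in rad3 sep1, at 3.25, 3.12 and 3.47 in rad3, at 2.97, 2.93 and 3.04 in cds1, at 1.99, 1.97 and 2.40 in chk1 and at 1.95, 1.88 and 2.01 in wild type. The 120 min samples of rad3 and cds1 were all above those of chk1 and wild type, and rad3 started higher. The late change of hsp9 was 2.10 ± 0.21 in rad3 sep1, 1.25 ± 0.12 in rad3, 1.74 ± 0.12 in cds1, 0.94 ± 0.12 in chk1 and 1.19 ± 0.12 in wild type, and each passed. Among all 4921 features the cds1 value ranked 10th in size of increase. Its 2 probes agreed closely, with r of 0.975 over the 70 arrays. With quantile normalization the late change was 0.10 in rad3 and 0.30 in chk1, which did not pass.

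The ish1 transcript was at -0.20, 0.25, 0.70, 1.46 and 2.05 over the 5 times in rad3 sep1. At 60 min it was at 1.75 in both rad3 samples, at 1.59, 1.55 and 1.57 in cds1, at 0.72 and 0.93 in chk1 and at 0.87 and 0.77 in wild type. At 120 min it was at 1.84, 2.02 and 1.85 in rad3, at 1.69, 1.75 and 1.84 in cds1, at 1.79, 1.36 and 1.57 in chk1 and at 1.21, 1.03 and 1.17 in wild type. The wild-type samples were the lowest at 120 min, and at 60 min chk1 and wild type overlapped below the others. Starting levels differed as well: 0 min samples of rad3 had 0.71, 0.71 and 0.65, against -0.13, -0.38 and -0.03 in wild type. The late change was 1.96 ± 0.16 in rad3 sep1, 1.14 ± 0.10 in rad3, 1.52 ± 0.09 in cds1, 0.97 ± 0.10 in chk1 and 1.16 ± 0.10 in wild type. These passed under every scaling and on either probe.

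The glycerol-3-phosphate dehydrogenase gene gpd1 (SPOM_SPBC215.05) serves the synthesis of glycerol, the osmolyte of yeasts. It rose late in rad3 sep1, by 1.26 ± 0.22 (adjusted p = 2.51e-05), and in rad3, by 0.60 ± 0.13 (adjusted p = 0.000662). Over the 5 times it was at 0.68, 1.34, 1.43, 1.81 and 2.06 in rad3 sep1. The rad3 samples were at 0.79, 0.73 and 0.65 at 0 min and at 1.67, 1.34 and 1.27 at 120 min, without overlap. In cds1 1 sample at 0 min, at 1.46, lay above the other 0 min samples at 0.82 and 0.66, and above the 120 min samples at 1.24, 1.20 and 1.31. The late changes of 0.22 in cds1, 0.32 in chk1 and 0.26 in wild type did not pass. Without that cds1 sample, replicate 1 at 0 min, the cds1 change was 0.46 and passed (adjusted p = 0.00722). With a replicate block, by whose numbers the chk1 samples paired, the chk1 value was 0.31 and passed (adjusted p = 0.029). With quantile normalization the calls in rad3 sep1 (0.43) and rad3 (0.11) were lost and wild type turned to -0.38 (adjusted p = 0.0423), so its direction depends on the scaling.

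Of the antioxidant enzymes, the glutathione peroxidase gene gpx1 (SPOM_SPBC32F12.03C) rose late by 1.70 ± 0.21 in rad3 sep1, 0.76 ± 0.13 in rad3, 0.93 ± 0.12 in cds1, 0.63 ± 0.13 in chk1 and 0.77 ± 0.13 in wild type. The single rad3 sep1 sample at 0 min was at -0.10, the lowest gpx1 value of all samples, and its 120 min sample at 1.87 lay within the range of the other strains. At 120 min gpx1 was at 2.05, 2.05 and 2.46 in rad3, at 1.74, 1.89 and 2.01 in cds1, at 1.10, 1.45 and 1.61 in chk1 and at 1.46, 1.57 and 1.77 in wild type. The rad3 samples were above all chk1 and wild-type samples. With quantile normalization only rad3 sep1 passed, at 1.04, and the late change was 0.39 in cds1, 0.16 in chk1, 0.18 in wild type and -0.090 in rad3.

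The catalase gene ctt1 (SPOM_SPCC757.07C) rose late by 1.40 ± 0.18 in rad3 sep1, 0.87 ± 0.11 in rad3 and 1.04 ± 0.11 in cds1, but by 0.34 ± 0.11 in both chk1 and wild type. At 0 min it was at 0.78 in rad3 sep1, at 0.62, 0.50 and 0.45 in rad3 and at 0.10, -0.01 and -0.15 in wild type. At 120 min it was at 2.30 in rad3 sep1, at 1.36, 1.48 and 1.62 in rad3, at 1.07, 1.41 and 1.40 in cds1, at 0.29, 0.71 and 0.56 in chk1 and at 0.43, 0.45 and 0.28 in wild type. All samples of the first 3 strains lay above those of chk1 and wild type. These means hide a disagreement between the 2 ctt1 probes. On the second probe the late change was 2.59 in rad3 sep1, 1.52 in rad3, 1.95 in cds1, 0.63 in chk1 and 0.48 in wild type, and each passed. On the first probe it was 0.21, 0.22, 0.12, 0.06 and 0.21 in the same order, and none passed. The probes correlated with r of 0.57 over the 70 arrays, and the averaged values are thus mostly those of the second probe shrunk towards 0. The small calls in wild type and chk1 were also lost without a single sample: in wild type without replicate 2 at 0 min (0.35), replicate 3 at 0 min (0.28) or replicate 1 at 60 min (0.33), and in chk1 without replicate 2 at 0 min (0.34) or the averaged 60 min sample (0.28). With quantile normalization the calls in rad3 sep1 (0.37) and chk1 (0.28) did not pass.

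**Figure D3:**
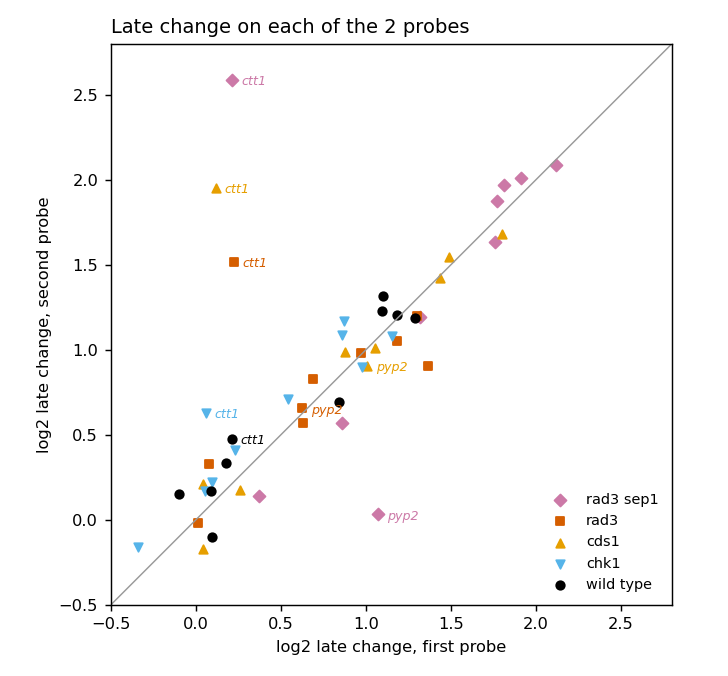
Late log2 change on the second probe against that on the first probe, 1 point per gene and strain (rad3 sep1, rad3, cds1, chk1 and wild type), with the line of equality. Most points lie near the line, while ctt1 stands far above it at 2.59 against 0.21 in rad3 sep1 and at 1.95 against 0.12 in cds1, and pyp2 in rad3 sep1 lies below it at 0.03 against 1.07.

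The regulators of the pathway among the 10 genes are pyp2 and atf1. Pyp2 is a tyrosine phosphatase that dephosphorylates Sty1, and its gene, pyp2 (SPOM_SPAC19D5.01), is a target of Atf1. It passed at neither 10 nor 30 min in any strain, and had risen at 60 min in rad3 sep1, rad3 and cds1 but did not pass there in chk1 or wild type. At 30 min pyp2 was at -0.61 in rad3 sep1, at -0.53, -0.40 and -0.58 in rad3, at -0.89, -0.74 and -0.57 in cds1, at -0.71, -0.68 and -0.62 in chk1 and at -0.79 and -0.94 in wild type. At 60 min it was at 0.17 in rad3 sep1, at 0.02 and 0.07 in rad3 and at 0.05, -0.01 and 0.15 in cds1. The chk1 samples at 60 min were at -0.82 and -0.72 and those of wild type at -0.62 and -0.77, well apart from the other 3 strains. At 120 min the levels of pyp2 in rad3 sep1, rad3 and cds1 were again above those in chk1 and wild type. It was at -0.31 in rad3 sep1, at -0.38, -0.06 and -0.06 in rad3 and at -0.16, -0.29 and -0.15 in cds1, against -1.03, -0.82 and -0.61 in chk1 and -0.70, -0.98 and -0.98 in wild type. Against its own 0 min sample, at -0.62, the 120 min change in rad3 sep1 was 0.31 and did not pass (adjusted p = 0.372). The late change was 0.55 ± 0.19 in rad3 sep1 (adjusted p = 0.0386), 0.64 ± 0.11 in rad3 (4.12e-05) and 0.96 ± 0.11 in cds1 (2.63e-09), while 0.11 in chk1 and 0.13 in wild type did not pass. Both probes gave this in cds1 (1.01 and 0.91) and rad3 (0.63 and 0.66), but in rad3 sep1 the first probe gave 1.07 and the second 0.03. Centring or quantile normalization of the arrays also ended the rad3 sep1 call, and with quantile normalization pyp2 passed in chk1 (0.42) and wild type (0.45) too.

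The transcript of Atf1 itself, atf1 (SPOM_SPBC29B5.01), passed late in no strain, with changes of 0.25 ± 0.19 in rad3 sep1, -0.0040 ± 0.11 in rad3, -0.06 ± 0.11 in cds1, -0.25 ± 0.11 in chk1 and 0.03 ± 0.11 in wild type. Over 0, 10, 30, 60 and 120 min its mean was 0.63, 0.85, 0.95, 0.75 and 0.57 in wild type and 0.79, 0.87, 1.11, 0.88 and 0.70 in rad3, highest at 30 min in both. No single time passed in these 2 strains. In chk1 the 60 min samples were at 0.26 and 0.48, below the 0 min samples at 0.91, 0.83 and 0.79, and this change of -0.47 passed, beside 1.38% of all features that fell at 60 min in chk1. The 120 min samples of chk1, at 0.87, 0.88 and 0.70, overlapped the untreated ones. With quantile normalization the late change in chk1 was -0.71 and passed.

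The order of onset was followed by testing each time against 0 min. At 10 min hsp9 (0.72) and ish1 (0.44) had risen in wild type and ish1 (0.47) in chk1, while no gene of the 10 had passed in rad3 sep1, rad3 or cds1 by then. The share of all features that rose at 10 min was 0.061% in rad3 sep1, 0.244% in rad3, 0.102% in cds1, 0.244% in chk1 and 0.284% in wild type. At 30 min tps1, ntp1 and ish1 had risen in rad3 sep1, tps1, gpd1 and ish1 in rad3, tps1, ntp1, hsp9 and ish1 in cds1 and wild type, and tps1, ntp1 and ish1 in chk1, against 0.447%, 0.813%, 1.08%, 0.63% and 1.89% of all features in rad3 sep1, rad3, cds1, wild type and chk1. More genes passed at the later times. At 60 min the counts were 8 in rad3 sep1, 6 in rad3, 7 in cds1, 5 in chk1 and 5 in wild type, where 4.51%, 2.13%, 5.22%, 2.62% and 4.88% of all features rose. At 120 min they were 7, 8, 7, 6 and 6 in the same order of strains, where 11.5%, 14.1%, 14.1%, 17.2% and 13% of all features rose. By 30 min tps1 and ish1 had thus passed in all 5 strains, ntp1 in all but rad3, hsp9 in cds1 and wild type, and gpd1 in rad3. In rad3 sep1, rad3 and cds1 ctt1 passed at 60 and 120 min, and in chk1 and wild type at 120 min alone. The phosphatase gene pyp2 passed at both of these times in rad3 and cds1, and at 60 min alone in rad3 sep1. That the strains differed in onset was not tested.

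The early change is the mean of 10 and 30 min minus 0 min. In rad3 sep1 tps1 rose by 0.91 ± 0.18, beside 0.142% of all features. In rad3 ish1 rose by 0.37 ± 0.09, beside 0.833%. In cds1 hsp9 rose by 0.62 ± 0.12 and ish1 by 0.43 ± 0.09, beside 0.406%. The nuclear envelope gene ish1 was thus the one early call shared by rad3 and cds1, and it passed in chk1 and wild type as well. In chk1 ish1 rose by 0.54 ± 0.09 and tps1 by 0.52 ± 0.10, beside 0.732%. In wild type hsp9 rose by 0.76 ± 0.12, tps1 by 0.58 ± 0.11, ntp1 by 0.56 ± 0.12 and ish1 by 0.55 ± 0.10, beside 0.671%. In chk1, where replicate numbers paired the samples, a fit with the number as a block counted 5, adding gpd1 (0.42), hsp9 (0.37) and ntp1 (0.35). The numbers also paired in cds1 and wild type, where the block added ntp1 in cds1 (0.40, adjusted p = 0.0258) and gpx1 in wild type (0.40, adjusted p = 0.00433). The early calls were small and several rested on few samples. The call of ish1 in rad3 was lost without replicate 1, 2 or 3 at 0 min, replicate 2 at 10 min or replicate 3 at 30 min, with values of 0.33 to 0.38. In cds1 both calls were lost without replicate 2 at 0 min (0.56 for hsp9, 0.40 for ish1), that of ish1 also without replicate 3 (0.41), and in wild type that of ntp1 without replicate 3 at 0 min (0.54). On the first probe alone 0 of the 10 passed early in rad3 sep1 and chk1, and 1 in cds1 and in wild type. The tps1 call in wild type was lost on either probe alone, in a fit of wild type alone and with the 10 min samples alone. Quantile normalization ended the calls of tps1 in wild type (0.38), chk1 (0.40) and rad3 sep1 (0.82), hsp9 in cds1 (0.60) and ish1 in rad3 (0.22). It kept those of ish1 in cds1, chk1 and wild type, and of hsp9 and ntp1 in wild type.

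Between 60 and 120 min some of these genes went on rising, while pyp2, ctt1, gpd1, tpp1 and atf1 passed in no strain. In rad3 sep1 hsp9 rose further by 1.16 ± 0.24, beside 0.793% of all features. In rad3 tps1 rose by 0.71 ± 0.13, hsp9 by 0.60 ± 0.15, ntp1 by 0.55 ± 0.15 and gpx1 by 0.54 ± 0.16, beside 1.69%. In cds1 hsp9 rose by 0.54 ± 0.14 and ntp1 by 0.50 ± 0.13, beside 2.05%. The heat shock gene hsp9 went on rising in all 3 of these strains. In chk1 ntp1 and ish1 rose by 0.75 each, hsp9 by 0.66 ± 0.15 and tps1 by 0.52 ± 0.13, beside 2.7%, and in wild type ntp1 rose by 0.54 ± 0.15, beside 1.22%. The change of pyp2 over this hour was -0.48 in rad3 sep1, -0.21 in rad3, -0.27 in cds1, -0.04 in chk1 and -0.20 in wild type, below 0 in all 5, and none of these passed. With a replicate block gpx1 passed too in cds1 (0.44, adjusted p = 0.00146), where the numbers paired. With quantile normalization no gene of the 10 passed over this hour in any strain, and hsp9 and ntp1 in rad3 and cds1, gpx1 in rad3 and tps1 in chk1 had values of -0.12 to -0.0032. The arrays also spread more widely with time: the SD over all features of an array averaged 0.41 in rad3 sep1 and 0.28 in wild type at 0 min, and 0.73 in rad3 sep1 and 0.47 in wild type at 120 min. The part of this spread in the later rises was not tested. In rad3 the call of gpx1 was lost without any 1 of its 5 samples (0.41 to 0.61), that of ntp1 without either 60 min sample or replicate 1 or 2 at 120 min (0.46 to 0.62), that of hsp9 without either 60 min sample or replicate 3 at 120 min (0.51 to 0.62), and that of tps1 without the averaged 60 min sample (0.57). In cds1 that of ntp1 was lost without replicate 2 at 60 min or replicate 1 or 2 at 120 min (0.38 to 0.48), and that of hsp9 without replicate 2 or 3 at 60 min or replicate 3 at 120 min (0.46 to 0.52). In chk1 those of hsp9 and tps1 were lost without replicate 1 at 60 min (0.38 and 0.49), that of hsp9 also without replicate 3 at 120 min (0.52) and that of tps1 without replicate 1 at 120 min (0.44). In wild type that of ntp1 was lost without the averaged 60 min sample (0.36) or replicate 1 or 2 at 120 min (0.47 and 0.50).

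Untreated cells of the strains differed before any HU was added. In untreated rad3 cells 4 of the 10 genes were higher than in wild type, beside 0.914% of all features: hsp9 by 1.20 ± 0.14 (adjusted p = 1.63e-08), ish1 by 0.88 ± 0.11 (7.02e-08), ctt1 by 0.54 ± 0.12 (0.00864) and ntp1 by 0.50 ± 0.13 (0.0415). For hsp9, ish1, ctt1 and ntp1 all 3 rad3 samples lay above all 3 wild-type samples, as they did for tps1 and gpx1, and for 4.9% of all features. The ctt1 difference was 0.98 on its second probe and 0.10, not passing, on its first, and its call was lost without replicate 1 of rad3 (0.49) or replicate 3 of wild type (0.48). The ntp1 call was lost without any 1 of the 6 samples, with values of 0.45 to 0.54. The differences of 0.44 in tps1 (adjusted p = 0.0509) and 0.49 in gpx1 (0.106) did not pass, and those of gpd1 (-0.07), tpp1 (0.17), pyp2 (0.22) and atf1 (0.16) were smaller.

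Untreated cds1 and chk1 cells were closer to wild type. With limma 0 of the 10 genes passed in either, beside 0.0406% of all features higher in cds1 and 0.102% higher in chk1. At an unadjusted p under 0.05 there were 2 in cds1, beside 336 of all 4921 features, and 3 in chk1, beside 242. The hsp9 difference was 0.44 ± 0.14 in cds1 (adjusted p = 0.229), with samples at 1.10, 0.85 and 0.96 in cds1, against 0.45, 0.53 and 0.61 in wild type. Blocking on the replicate number, by which these samples paired, it passed (adjusted p = 0.0409). The ish1 difference was 0.41 ± 0.11 in chk1 (adjusted p = 0.153), with samples at 0.10, 0.15 and 0.42 in chk1. The single untreated rad3 sep1 sample was lower than untreated rad3 in 5 genes: hsp9 by -1.67 ± 0.19, gpx1 by -1.26 ± 0.20, ish1 by -0.90 ± 0.15, ntp1 by -0.76 ± 0.19 and tps1 by -0.75 ± 0.17. In this comparison 15.7% of all features were lower, with 311 higher and 772 lower. Centring the arrays made this 462 and 606, and quantile normalization 557 and 568. It rests on 1 sample, so the genotype and that culture cannot be told apart.

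**Figure D4:**
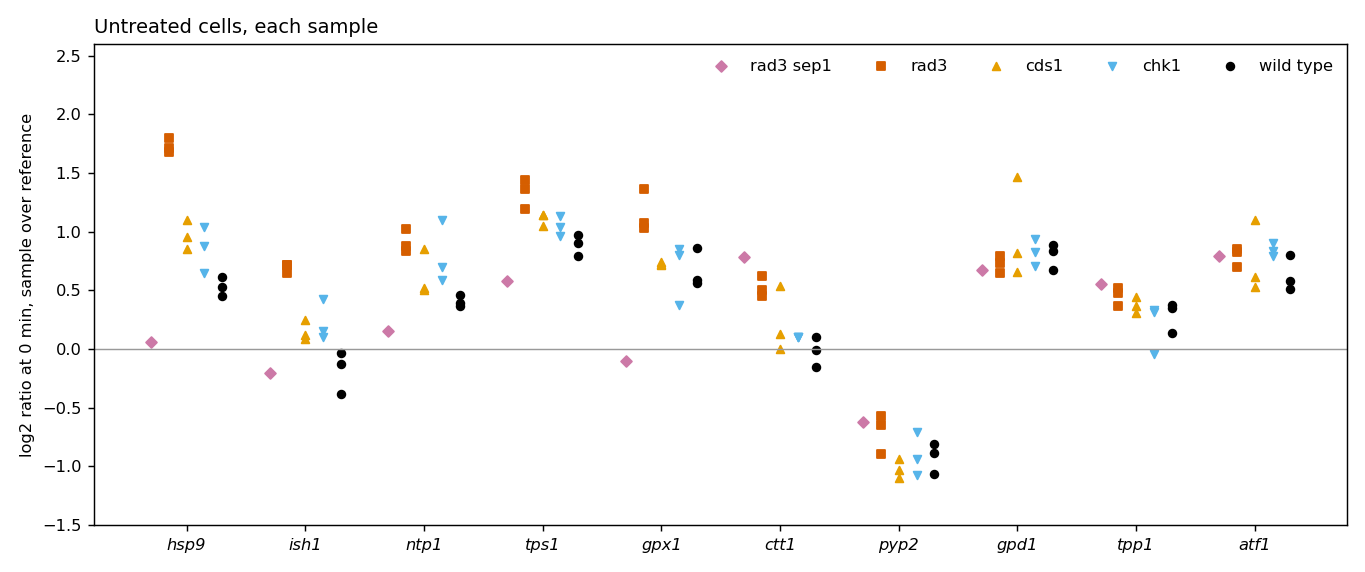
Log2 ratio of each gene in every untreated (0 min) sample of rad3 sep1, rad3, cds1, chk1 and wild type. All 3 rad3 samples of hsp9, at 1.68 to 1.80, and of ish1, at 0.65 to 0.71, lie above every other untreated sample, and the rad3 sep1 sample is the lowest for hsp9, tps1, ntp1 and gpx1.

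Whether the late change differed between strains was tested directly as a difference of changes. The comparisons with wild type share its samples. In cds1 2 of the 10 genes rose more than in wild type, beside 1.1% of all features. The late change of pyp2 was 0.96 in cds1 and 0.13 in wild type, a difference of 0.83 ± 0.16 (adjusted p = 0.000788) that ranked 19th of all features. It was 0.91 on the first probe and 0.74 on the second (adjusted p = 0.0603), and passed without any 1 of the 17 samples, with values of 0.77 to 0.90. The late change of ctt1 was 1.04 in cds1 and 0.34 in wild type, a difference of 0.69 ± 0.15 (adjusted p = 0.00577). It came from the second probe, with 1.48 (adjusted p = 3.55e-09), whereas the first gave -0.092. With quantile normalization it was 0.41 and did not pass. The differences of 0.55 ± 0.17 in hsp9 (adjusted p = 0.0821) and 0.35 ± 0.13 in ish1 (0.159) did not pass, and those of the other 6 genes lay between -0.18 and 0.19.

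In rad3 0 of the 10 differed from wild type in the late change by limma, beside 0.691% of all features that rose more. An unadjusted p under 0.05 was held by 532 of all 4921 features, and by 2 of the 10. These were ctt1, at 0.87 in rad3 and 0.34 in wild type (difference 0.53 ± 0.16, adjusted p = 0.0926), and pyp2, at 0.64 in rad3 and 0.13 in wild type (0.51 ± 0.16, adjusted p = 0.122). On the second probe alone the ctt1 difference was 1.04 and passed, as did that of rad3 sep1 over rad3 (1.07). In chk1 0 of the 10 differed from wild type by limma, 0 at an unadjusted p under 0.05, with differences of -0.28 to 0.16. No feature of the array passed this comparison (0%), and 109 of 4921 had an unadjusted p under 0.05. In the double mutant 3 genes changed more than in rad3, beside 0.772% of all features: gpx1 by 0.94 ± 0.24 (adjusted p = 0.048), tps1 by 0.85 ± 0.21 (0.0269) and ish1 by 0.83 ± 0.18 (0.0119). Blocking on the replicate number, by which the rad3 samples paired, gave 5, adding hsp9 (0.85) and ntp1 (0.78). Neither a single probe nor quantile normalization kept the call of gpx1, tps1 or ish1, though the values stayed above 0. Those of tps1 and gpx1 were also lost with centred arrays and without replicate 3 of rad3 at 0 min (0.79 and 0.83) or its averaged 60 min sample (0.78 and 0.93), that of tps1 without replicate 2 at 0 min (0.83), and that of gpx1 without replicate 2 at 60 min (0.95) or replicate 1 or 2 at 120 min (0.90 each). At 120 min tps1 was at 2.61 in rad3 sep1 and averaged 2.66 in rad3, and gpx1 was at 1.87 in rad3 sep1 and averaged 2.19 in rad3. For tps1 and gpx1 the double mutant thus began lower at 0 min and did not end higher. The ish1 transcript also began lower, at -0.20 in rad3 sep1 against a mean of 0.69 in rad3, but at 120 min it was at 2.05 against a mean of 1.90.

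The 10 genes did not move as a single block. Over the 25 means of strain and time, the correlation between pairs of them ranged from -0.102 to 0.971, with a median of 0.581 over 45 pairs. These means share strains, times and arrays, so r is given as a description. Each gene was also set against the mean of the other 9. The closest was ish1 (r = 0.968), followed by tps1 (0.913), ntp1 (0.898), gpx1 (0.827) and hsp9 (0.82). The genes pyp2 (0.738), gpd1 (0.732), ctt1 (0.728) and tpp1 (0.501) followed less closely, and atf1 least (0.169). The tightest pair was tps1 and ntp1 (0.971), the synthase and the hydrolase of trehalose, and gpx1 and atf1 made the lowest (-0.102). The genes ctt1 and pyp2 had r of 0.836, and ctt1 and tpp1 0.869.

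Other genes of the pathway were counted from 4 lists drawn up from general knowledge. Of 22 genes for the signalling pathway itself (sensors, the kinases, phosphatases, partner transcription factors and kinases downstream of Sty1), the counts that moved late were as follows: 3 rose and 3 fell in rad3 sep1, 2 and 3 in rad3, 3 and 2 in cds1, 2 and 0 in chk1, and 1 and 1 in wild type. Of all features 11%, 10.4%, 12.4%, 12.6% and 12.3% rose in the same order of strains, and the 3 of 22 that rose in rad3 sep1 or cds1 are close to those shares. Their median late change was 0.01 to 0.13. The gene of Pap1, the AP-1-like factor of the oxidative stress response, rose by 0.72 in rad3 sep1, 0.37 in cds1, 0.25 in chk1 and 0.30 in wild type. That of the Sty1-dependent kinase Srk1 rose by 0.62 in rad3 sep1 and 0.54 in cds1. The gene of the Sty1-activating kinase Wis1 fell by 0.53 in rad3 sep1, 0.37 in rad3 and 0.41 in cds1. Early, none of the 22 passed in any strain, and with quantile normalization 1 rose in rad3 and 1 in chk1. In the difference of late changes none of the 22 passed either, and srk1 had 0.47 for cds1 over wild type (adjusted p = 0.0588). With quantile normalization the late counts were 0 and 1 in rad3 sep1, 2 and 0 in rad3, 2 and 1 in cds1, 2 and 0 in chk1 and 1 and 0 in wild type, and pap1, srk1 and wis1 kept their signs. The counts of all features with this normalization are given with the late change above.

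Of 14 further stress genes 13 were tested, ecl1 not being among the features with values. Late, 10 of the 13 rose in rad3 sep1, 11 in rad3, 10 in cds1, 8 in chk1 and 9 in wild type, and 1 fell in cds1. Of all features 11%, 10.4%, 12.4%, 12.6% and 12.3% rose late in the same order of strains, and 12.6% fell in cds1. The gene hsp16, which encodes another small heat shock protein, rose by 2.99 in rad3 sep1, 2.23 in rad3, 3.32 in cds1, 2.73 in chk1 and 3.62 in wild type, more than any of the 10 core genes in the same strain. Its late change in rad3 was below that of wild type by -1.38 ± 0.19 (adjusted p = 1.15e-06), while untreated rad3 cells already held 2.69 ± 0.15 more hsp16 than untreated wild type. Untreated hsp16 was also higher than in wild type in cds1 (1.64) and chk1 (1.07). Untreated rad3 cells were also higher in zym1, a metallothionein gene (2.06), the disaggregase gene hsp104 (1.33) and gst2, a glutathione S-transferase gene (0.72). Between 60 and 120 min gst2 rose by 1.03 to 1.75 in all 5 strains. Over this hour none of the 13 passed with quantile normalization in rad3 sep1, rad3, chk1 or wild type, and 2 rose in cds1. With quantile normalization 3, 4, 4, 6 and 5 of the 13 rose late in rad3 sep1, rad3, cds1, chk1 and wild type. Beside these, 74, 360, 540, 539 and 573 of all 4921 features rose. The late change of hsp16 was then 0.00 in rad3 and 0.13 in cds1.

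Of 11 genes of glycerol and glucose metabolism, 8 rose late in rad3 sep1 and 4 in each other strain, beside the shares of all features given above, and none fell. With quantile normalization 4 rose in rad3 sep1, 3 in rad3, 3 in cds1, 4 in chk1 and 2 in wild type. Of all 4921 features 74, 360, 540, 539 and 573 then rose late in the same order of strains. The glucose-6-phosphate dehydrogenase gene zwf1 rose in all 5, by 1.75 in rad3 sep1, 0.55 in rad3, 0.87 in cds1, 0.71 in chk1 and 0.68 in wild type. The mitochondrial glycerol-3-phosphate dehydrogenase gene gut2, which acts in glycerol use, rose more than in wild type in rad3 (difference 0.83 ± 0.14, adjusted p = 5.97e-05) and in cds1 (0.95 ± 0.13, adjusted p = 3.19e-06). Of 16 antioxidant genes, 9 rose late in rad3 sep1, 9 in rad3, 11 in cds1, 8 in chk1 and 9 in wild type, beside the same shares of all features. Of the 16, 1 fell in cds1 and 2 in chk1, where 12.6% and 14.9% of all features fell. The sulfiredoxin gene srx1 rose late by 2.77 in rad3 sep1, 1.41 in rad3, 1.71 in cds1, 1.10 in chk1 and 1.01 in wild type, and already passed early in all 5. In the difference of late changes gst2 (0.76), srx1 (0.71) and sod1, the copper-zinc superoxide dismutase gene (0.61), passed for cds1 over wild type. With quantile normalization these 3 did not pass, at 0.37, 0.36 and 0.65. The late rises among the 16 then numbered 5, 3, 3, 4 and 5 in rad3 sep1, rad3, cds1, chk1 and wild type, beside the counts of all features just given. The gene gst2 stands in both the antioxidant list and that of the further stress genes.

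Among all features with 1 symbol outside the 10, those whose 25 means of strain and time were most like the mean of the 10 were mrpl40 (r = 0.981), SPOM_SPAC22F8.05 (0.973), SPOM_SPAC2F3.05C (0.971), rtc3 (0.968), SPOM_SPBC12C2.04 (0.964) and srx1 (0.963). Their late changes were 0.82 to 1.45 in rad3, 1.27 to 1.71 in cds1, 0.64 to 1.10 in chk1 and 0.68 to 1.28 in wild type. The mean of the 10 itself was 0.27 in untreated rad3 sep1, 0.75 to 0.77 in untreated rad3, 0.40 to 0.65 in untreated cds1, 0.45 to 0.48 in untreated chk1 and 0.28 to 0.36 in untreated wild type. At 120 min it was 1.81 in rad3 sep1, 1.64 to 1.69 in rad3, 1.42 to 1.48 in cds1, 1.16 to 1.18 in chk1 and 1.00 to 1.03 in wild type. Samples of a strain lay close together at 120 min, and the strains did not overlap there. These are levels against the reference, with a single sample from rad3 sep1, and the mean includes ctt1, whose probes disagree. How many other features separate the strains likewise was not counted. At 120 min the SD over all features of an array averaged 0.734 in rad3 sep1, 0.526 in rad3, 0.495 in cds1, 0.508 in chk1 and 0.474 in wild type. The part of this spread in the separation was not tested.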

How the data were processed

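Total RNA of the cultures was labelled as cDNA through aminoallyl-dUTP and hybridized to 2-colour arrays, 70 in number, per the labels' protocols. The deposited values are log2 ratios of Cy5 (the sample) to Cy3 (untreated wild type). Base and direction were settled from the values: raising 2 to each value gave a number of 3 decimals for 100% of them (relative tolerance 1e-05), and the mutated genes read low. How they were normalized: not given in the sources used here. None was added. Of all values 0.238% were missing, and array medians lay between -0.15 and 0.06.

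The 2 probes of a feature were averaged. A feature was tested if each group had 2 or more arrays with a value (4921 of 4929). Of 65 pairs of arrays within groups, 9 differed by amounts that did not repeat between probes (r of -0.00233 to 0.0317, against 0.113 to 0.488 in the other 56) and were averaged: the pair at each rad3 sep1 time, replicates 1 and 3 for rad3 (60 min) and wild type (30 min), and replicates 2 and 3 at 60 min for chk1 and wild type. This r does not register a shift shared by all features of an array. The series text calls the repeats biological.

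The 25 groups of strain and time entered 1 limma model (version 3.58.1, lmFit then eBayes, R 4.3.3), with Benjamini-Hochberg adjustment over all 4921 features within a comparison and a threshold of 0.05. A rad3 sep1 group is a single sample, assumed to vary like the others. Times of a change weigh equally. Figures used Python 3.11.15 and matplotlib 3.10.9.

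Replicate numbers were taken to pair samples where every same-number correlation of deviations was over 0.1 in at least 3 pairs: early in cds1, chk1 and wild type, late in rad3, cds1 and chk1, between 60 and 120 min in cds1, in rad3 sep1 against rad3 for the late change, and in untreated cds1 or chk1 against wild type. For rad3 sep1 against rad3 every pair lay within rad3, since each rad3 sep1 time is a single sample. Whether the replicate numbers pair rad3 sep1 with rad3 could thus not be checked. Blocked values stand beside results in the comparisons listed where they move a count.

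The 10 genes and the lists were chosen with earlier results of these data known. No p was adjusted over a list. Named genes were the 10, the deleted genes, up to 4 genes per list and comparison with the smallest adjusted p, and the 6 features most alike. Where a gene named from a list in one comparison is given for other strains too, the rule named it there as well. Gene symbols are those of the platform annotation, and all 10 matched RefSeq entries. Alternatives were other scalings, probes, arrays, filters, fits and times, and leaving out each sample in turn. Background correction could not be varied, since scanner signals were not used here.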

Additional observations from a re-analysis of the deposited data

Results flagged for a closer look

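The differences below were tested as interaction terms of the limma fit. The late change of pyp2 was larger in cds1 than in wild type by 0.83 on the log2 scale. That of ctt1 was larger in cds1 than in wild type by 0.69, a difference seen on 1 of its 2 probes. In rad3 sep1 the late changes of gpx1, tps1 and ish1 were larger than in rad3 by 0.94, 0.85 and 0.83, with a single rad3 sep1 sample at each time.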

How the results depend on the processing

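Of 72 called changes of single genes, 1165 of 1336 repeats under an alternative kept direction and call, 163 lost the call and 8 changed sign. Quantile normalization kept 35 of the 72. It gives every array the same set of values, whereas the deposited values spread more widely at later times. The first probe alone kept 41, the second 57 and centring 69. All 72 were kept with robust eBayes, without the filter or with a replicate block. They were also kept with 70 arrays, which added 31 calls. That fit counts the averaged pairs as separate samples, so it cannot show that a call holds.

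Signs changed for ctt1 in the late difference of cds1 minus wild type on the first probe (-0.092), and with quantile normalization for gpd1 late in wild type (-0.38), gpx1 late in rad3 (-0.090), and between 60 and 120 min for gpx1 (-0.0069), hsp9 (-0.040) and ntp1 (-0.0032) in rad3, hsp9 (-0.12) and ntp1 (-0.051) in cds1 and tps1 (-0.019) in chk1. The change of gpd1 in wild type was not called in the main setting.

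Counts of the 10 genes called in either direction that moved by over 1.5 times were as follows. Early in rad3 sep1 (1 in the main setting), rad3 (1), cds1 (2) and chk1 (2), array weights gave 2, 5, 4 and 5. Early counts on the first probe were 0 in rad3 sep1, 1 in cds1, 0 in chk1 and 1 in wild type (4), and on the second 0 in rad3 sep1, 0 in rad3 and 1 in cds1. The 10 min samples alone gave 0 in rad3 sep1, rad3 and cds1, 1 in chk1 and 2 in wild type, and the 30 min samples alone 3 in rad3 sep1, 3 in rad3 and 4 in cds1. All 70 arrays gave 7 early in rad3 sep1, 3 in rad3 and 4 in chk1, and the replicate block 2, 3 and 5. A fit of the strain alone gave 2 in rad3 and 1 in chk1, quantile normalization 0 in rad3 sep1, 0 in rad3 and 1 in chk1, and centring 2 in rad3. Late, quantile normalization gave 5 in rad3 sep1 (9), 3 in rad3 (8), and in chk1 (6) 3 that rose beside 1 that fell.

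Between 60 and 120 min the counts were 1 in rad3 sep1, 4 in rad3, 2 in cds1, 4 in chk1 and 1 in wild type. They were 0 in all 5 with quantile normalization. The first probe gave 0, 0, 0, 1 and 0 and the second 2 in rad3 and 1 in cds1. In rad3 sep1 array weights gave 2, the replicate block 2 and all 70 arrays 5. In wild type the replicate block gave 2 and all 70 arrays 3, and the fit of the strain alone gave 2 in rad3.

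For the late difference, cds1 minus wild type (2) gave 4 with array weights and 1 with either probe, the 60 min samples alone or quantile normalization. For rad3 minus wild type (0), array weights, all 70 arrays and the replicate block gave 2, the second probe and the fit of both strains alone 1, and quantile normalization 1, ish1 lower by -0.65. For rad3 sep1 minus rad3 (3), array weights and the replicate block gave 5, all 70 arrays 7, the second probe, both strains alone and centring 1, and the first probe, the 60 min samples alone and quantile normalization 0. Untreated counts were 1 with array weights or all 70 arrays and 2 with quantile normalization for chk1 minus wild type (0), 1 with the replicate block for cds1 minus wild type (0), and on the first probe 2 for rad3 minus wild type (4) and 3 for rad3 sep1 minus rad3 (5).

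Without 1 sample at a time, early counts were 0 to 3 in rad3, 0 to 3 in cds1, 2 to 3 in chk1 and 3 to 4 in wild type. Late counts were 8 in rad3, 7 to 8 in cds1, 5 to 6 in chk1 and 5 to 6 in wild type. Between 60 and 120 min they were 0 to 2 in rad3, 0 to 2 in cds1, 2 to 5 in chk1 and 0 to 1 in wild type. The late difference gave 1 to 4 for rad3 sep1 minus rad3, 2 for cds1 minus wild type and 0 for rad3 or chk1 minus wild type. Untreated counts were 5 for rad3 sep1 minus rad3, 2 to 3 for rad3 minus wild type and 0 for cds1 or chk1 minus wild type. Leaving out a rad3 sep1 sample, or fitting rad3 sep1 alone, gives no value.

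Scaling also moved the split of all called features. With quantile normalization, higher and lower calls were 74 and 58 late in rad3 sep1 (543 and 253 in the main setting), 82 and 95 early in chk1 (36 and 24) and 39 and 21 early in wild type (33 and 5). Between 60 and 120 min they were 0 and 2 in rad3 (83 and 31, or 111 and 22 when centred), 23 and 31 in cds1 (101 and 78), 7 and 24 in chk1 (133 and 109) and 5 and 33 in wild type (60 and 75). Elsewhere they were 3 and 1 in the late difference of rad3 sep1 minus rad3 (38 and 2), and in untreated cells 22 and 14 for cds1 minus wild type (2 and 4, or 4 and 4 when centred) and 18 and 3 for chk1 minus wild type (5 and 2). The replicate block ended none of the 72 calls and added 21. The lists were recounted under both scalings after the data were seen. The cause of these shifts was not tested.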
